A study of Mus musculus with 9 samples.

Results

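The 41 genes described here are parts of the apoptosis machinery, caspases and targets of the transcription factor p53, measured by bulk RNA-seq in mouse splenic CD4+ T cells. They were chosen by gene symbol from a list of the pathway and not by a threshold on their values. Earlier results of these data were known when the list was made. Coordinates are those of RefSeq on GRCm38.p6. All 41 were found among 25160 named genes, each read from its most abundant transcript entry, and 40 of them were among the 11256 genes abundant enough to be tested. The exception was Mlkl, the pore-forming protein of necroptosis, which had 7, 2 and 6 counts in the anti-CD40L libraries, 5, 3 and 7 counts in the KO isotype libraries and 4, 3 and 4 counts in the wild-type isotype libraries.

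The p53 protein is kept low by the ubiquitin ligase MDM2 and its relative MDM4, and when it accumulates it switches on genes for growth arrest, DNA repair, metabolic restraint and cell death. Apoptosis itself runs along a pair of routes: death receptors such as Fas recruit FADD and caspase-8, and damaged mitochondria release cytochrome c, which assembles APAF1 and caspase-9 into the apoptosome. In T cells these routes limit the size of the activated population, while caspase-8 and its partner c-FLIP also restrain necroptosis driven by RIPK1 and RIPK3.

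The study asked how CD40 ligand (CD40L, gene Cd40lg), a protein that activated helper T cells display to engage CD40 on other cells, acts within the T cell that carries it. Spleens of C57BL/6 mice gave the naive CD4+ T cells, which were isolated on a cell sorter and placed in plates coated with 1 µg/ml of an antibody to CD3e, which engages the T cell receptor complex in all 9 libraries. Wild-type cells with 19 µg/ml plate-bound anti-CD40L formed 1 group, and cells titled KO, with the genotype given as cre, on 19 µg/ml isotype control antibody formed another. The remaining group was wild-type cells on 19 µg/ml isotype control antibody, and each of the 3 groups had 3 libraries. The design describes the KO as a loss of CD40L restricted to T cells. The sources used here do not state the Cre driver, the deleted exons, the age and sex of the mice, the time in culture or whether each library came from its own mouse. The p-values therefore measure the spread between libraries, which may be technical.

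The libraries held 5316482 to 15565711 counts, given below as CPM, counts scaled to the effective size of each library. Replicate 3 of the anti-CD40L group was the shallowest and had 11673 genes detected, against 14290 to 17428 in the other libraries, and it lay at -86.96 on the first principal component, where the others lay between -10.22 and 19.1. Several results are also given without it, while the marker sums are given only with it. Cd40lg had 109, 132 and 163 CPM in the anti-CD40L libraries, 145, 136 and 150.2 CPM in the KO isotype libraries and 142, 154 and 189 CPM in the wild-type isotype libraries, and the groups overlapped (edgeR quasi-likelihood test of KO against wild-type isotype libraries, log2 fold change -0.17, SE 0.13, adjusted p = 0.935). Since the count covers the whole transcript and the deleted exons are not given, it does not check the label, and the second group is called the KO isotype libraries after its title. CD4 T cell markers summed to between 3892.5 and 4403.6 CPM over all 9 libraries, with 7 of 8 listed markers found and none of these at 0.

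Markers of other cell types were low but uneven. The 8 B cell markers summed to 1.72 to 14.3 CPM in anti-CD40L libraries, 7.1 to 18.4 CPM in KO isotype libraries and 12.7 to 38 CPM in wild-type isotype libraries, with no marker at 0 in all 3 libraries of a group. The 11 myeloid and dendritic cell markers summed to 0.382 to 1.01 CPM in anti-CD40L libraries, to 3.15 to 13.8 CPM in KO isotype libraries and to 4.03 to 4.37 CPM in wild-type isotype libraries. At 0 in all 3 libraries of the group were 4 of them with anti-CD40L, 1 in KO isotype and 2 in wild-type isotype libraries. In anti-CD40L replicate 3, the shallowest library, most markers of both lists were at 0. CD8 T cell, NK cell and erythroid marker sums reached at most 30.7 CPM in any library and overlapped between groups. The myeloid sums were lowest with anti-CD40L without overlap, and the median B cell sum was 9.14 CPM with anti-CD40L, 9.86 CPM in KO isotype and 29 CPM in wild-type isotype libraries. Much of the B cell gap was in Fcer2a, which averaged 0.656 CPM with anti-CD40L, 0.59 CPM in KO isotype and 11.7 CPM in wild-type isotype libraries, whereas Cd79a averaged 1.69, 2.86 and 2.01 CPM in the same groups. These sums move with the groups compared below, and their part in the results was not tested. In bulk RNA, fewer cells that express a gene and less of its RNA per cell cannot be told apart.

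The DNA before the start of p53 target genes is shown first, because the clearest changes among the members lay in the 8 genes classed here under that name. p53 binds a pair of copies of a 10-base half-site, made of a run of purines, a C, a pair of A or T bases, a G and a run of pyrimidines, which reads the same on both strands. In RefSeq windows of 250 bases before annotated starts (assembly GRCm38.p6), 8 of 39 windows (20.5%), from 8 of the 32 members with a window, held this p53 half-site, against 2341 of 32851 windows of all genes (7.13%). The 8 were Gadd45a, Aen, Ei24, Sesn1, Mdm2, Ccng1, Trp53 and Polk. Zmat3 and Rrm2b, which were called with anti-CD40L, had no window and were not scanned. The windows of Ccng1 (chr11:40755287-40755536, minus strand), Ei24 (chr9:36797335-36797584, minus strand) and Sesn1 (chr10:41887189-41887438, plus strand) are printed because these genes changed with anti-CD40L in opposite directions, and that of Mdm2 (chr10:117710759-117711008, minus strand) because it holds the same motif and its gene was not called. Each reads 5′ to 3′ towards the start, and capitals mark the half-site.
Ccng1: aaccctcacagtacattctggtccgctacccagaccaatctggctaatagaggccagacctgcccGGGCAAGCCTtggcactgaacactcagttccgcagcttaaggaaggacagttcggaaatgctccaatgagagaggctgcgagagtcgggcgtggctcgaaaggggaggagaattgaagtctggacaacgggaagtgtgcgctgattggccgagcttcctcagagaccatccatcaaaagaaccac
Ei24: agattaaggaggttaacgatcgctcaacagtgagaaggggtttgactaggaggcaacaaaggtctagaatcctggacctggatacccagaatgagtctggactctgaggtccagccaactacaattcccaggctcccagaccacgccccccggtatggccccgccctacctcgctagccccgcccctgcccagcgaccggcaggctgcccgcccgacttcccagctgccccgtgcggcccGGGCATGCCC
Sesn1: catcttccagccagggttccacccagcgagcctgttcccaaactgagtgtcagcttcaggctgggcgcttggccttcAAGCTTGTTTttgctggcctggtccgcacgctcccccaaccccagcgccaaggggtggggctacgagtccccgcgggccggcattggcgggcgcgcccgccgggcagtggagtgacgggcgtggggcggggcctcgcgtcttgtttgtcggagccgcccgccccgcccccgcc
Mdm2: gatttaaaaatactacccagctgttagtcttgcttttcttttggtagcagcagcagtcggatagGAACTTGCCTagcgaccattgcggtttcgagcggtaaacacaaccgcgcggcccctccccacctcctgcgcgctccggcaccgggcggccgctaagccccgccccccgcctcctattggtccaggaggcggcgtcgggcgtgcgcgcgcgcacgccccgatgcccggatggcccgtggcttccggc
Counting the last base before the start as -1, the half-site began at -185 in Ccng1, -10 in Ei24, -173 in Sesn1 and -186 in Mdm2. Sesn1 has a second annotated start, whose window (chr10:41810324-41810573) held none. A single half-site is a match of letters only: it was present in genes that rose, in one that fell and in ones that were not called, and nothing about p53 binding was measured.

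Plate-bound anti-CD40L divided the p53 target genes. Zmat3, Ccng1 and Ei24 were higher and Sesn1 was lower than in wild-type cells on isotype antibody, while Trp53 itself and its inhibitors Mdm2 and Mdm4 were not called. Rrm2b, a p53-inducible subunit of ribonucleotide reductase, and Casp9, the initiator caspase of the mitochondrial route, were also lower, with less support. In all, 6 of the 40 tested members (15%) had an adjusted p under 0.05, against 9.37% of all tested genes (1055 of 11256). Of the 6, 3 were higher and 3 were lower, against 2.91% and 6.46% of all tested genes in those directions. The members' median log2 fold change was 0.09, against -0.01 over all tested genes, and their changes ranged from -1.06 to 0.56. The 3 libraries of each group did not overlap in 14 members (35%), against 32.6% of all tested genes, and of these 9 were higher and 5 lower, against 15.4% and 17.2%.

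**Figure D1:**
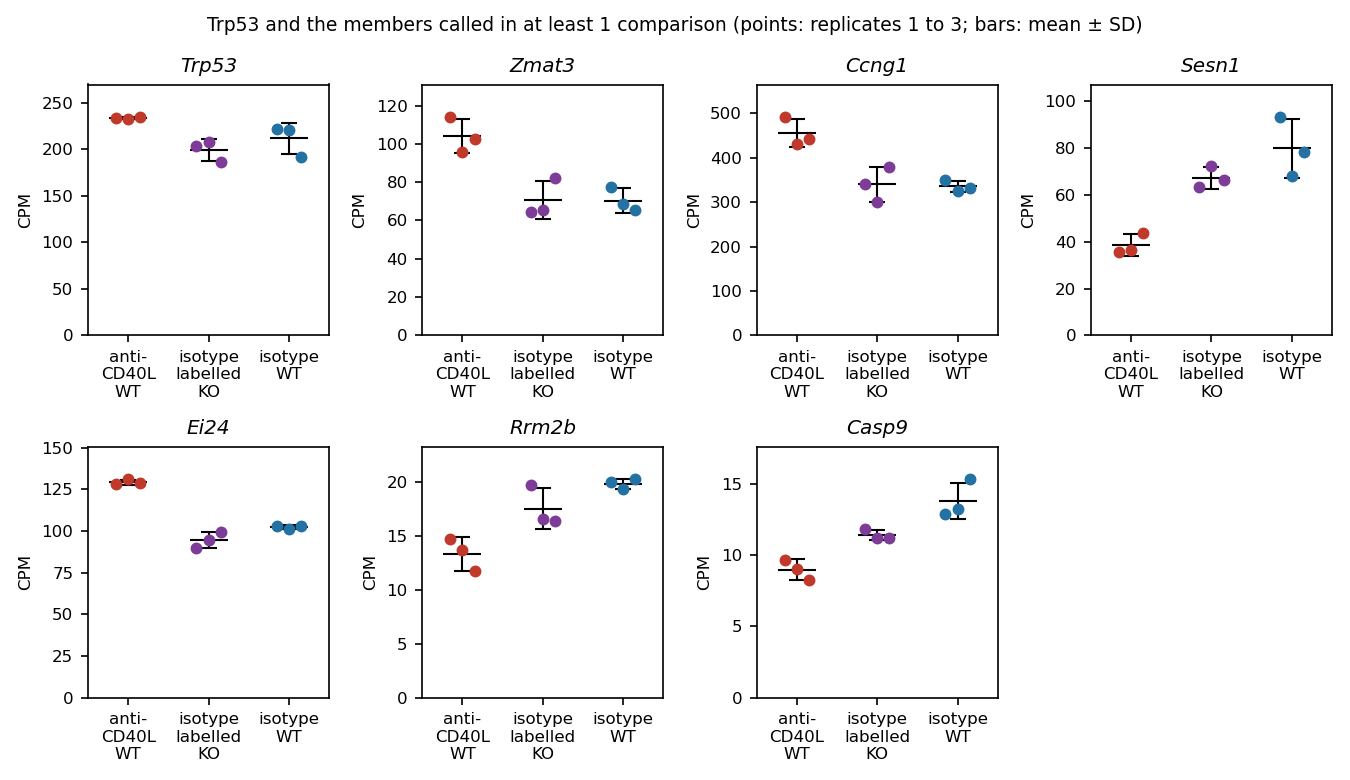
Levels in CPM (vertical axes, from 0) of Trp53 and of the 6 members called in at least 1 comparison, for anti-CD40L wild-type, isotype KO and isotype wild-type libraries. Points are replicates 1 to 3 and bars are mean ± SD. Zmat3, Ccng1 and Ei24 lie above both isotype groups with anti-CD40L and Sesn1, Rrm2b and Casp9 lie below them.

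Trp53 (NM_001127233, chr11:69580348-69591873) had 234, 233 and 234 CPM in the anti-CD40L libraries, 203, 208 and 186 CPM in the KO isotype libraries and 222, 221 and 192 CPM in the wild-type isotype libraries. The anti-CD40L libraries lay close together and above all 6 isotype libraries, by a small margin over the wild-type ones. The difference from wild-type isotype libraries was not called (edgeR quasi-likelihood test, log2 fold change 0.14, SE 0.08, adjusted p = 0.279, 95% interval -0.03 to 0.32). Mdm2, the ligase that marks p53 for degradation and is itself a p53 target, averaged 98.8 ± 9.84 CPM with anti-CD40L and 93.9 ± 3.32 CPM in wild-type isotype libraries (SD, n = 3 each), with an interval for the log2 fold change of -0.12 to 0.28. Mdm4, which covers the activation domain of p53, averaged 178 ± 29.9 CPM and 188 ± 12.2 CPM in the same groups (SD, n = 3 each). Both genes overlapped between the groups and neither was called (edgeR, Benjamini-Hochberg adjusted p = 0.638 for Mdm2 and 0.792 for Mdm4).

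Zmat3 (NM_009517, chr3:32334792-32365665) encodes a zinc finger protein that binds RNA and is a direct p53 target. It had 114, 96 and 102 CPM in the anti-CD40L libraries, 64.2, 65.5 and 82.3 CPM in the KO isotype libraries and 77.7, 68.5 and 65.2 CPM in the wild-type isotype libraries. Each anti-CD40L library exceeded every isotype library of either genotype. The rise over wild-type isotype libraries was 1.48-fold (edgeR quasi-likelihood test, log2 fold change 0.56, SE 0.12, adjusted p = 0.0095), and the gene was called under all 19 alternative settings with adjusted p from 3.49e-05 to 0.0491 by edgeR, limma or DESeq2. Its transcript of 7797 bases is among the longest of the members, and the call held with a library-specific trend on transcript length removed (edgeR adjusted p = 0.00377).

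Ccng1 (NM_009831, chr11:40748552-40755309) encodes cyclin G1, a p53-induced protein that brings a phosphatase to MDM2. Its level was 491, 432 and 443 CPM in the anti-CD40L libraries, 340.3, 300.3 and 379 CPM in the KO isotype libraries and 349, 325 and 333 CPM in the wild-type isotype libraries. The lowest anti-CD40L library stood above the highest isotype library. The rise was 1.36-fold (edgeR quasi-likelihood test, log2 fold change 0.44, SE 0.09, adjusted p = 0.0103), called under all 19 alternatives, where the highest adjusted p was 0.0492 (edgeR).

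Ei24 (NM_001199494, chr9:36779153-36797334), a p53-induced protein of the endoplasmic reticulum with a part in autophagy, had 128, 131 and 129 CPM in the anti-CD40L libraries, 89.8, 94.5 and 99.6 CPM in the KO isotype libraries and 103, 101 and 103 CPM in the wild-type isotype libraries. Replicates were tight in each group, and the anti-CD40L libraries were all the highest. The rise was 1.26-fold (edgeR quasi-likelihood test, log2 fold change 0.34, SE 0.08, adjusted p = 0.0146). The call was lost without wild-type isotype replicate 2 (edgeR adjusted p = 0.0605) or replicate 3 (edgeR adjusted p = 0.0554), and 6.66% of the gene's exon bases overlap the gene Gm26787 on the opposite strand.

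Sesn1 (NM_001162908, chr10:41810574-41908436) encodes sestrin 1, a stress protein that holds back the growth kinase complex mTORC1. It had 35.4, 36.3 and 43.8 CPM in the anti-CD40L libraries, 63.2, 72.2 and 66.2 CPM in the KO isotype libraries and 93.1, 68.1 and 78.3 CPM in the wild-type isotype libraries. The anti-CD40L libraries were the lowest by a wide margin. The level fell 2.09-fold (edgeR quasi-likelihood test, log2 fold change -1.06, SE 0.13, adjusted p = 0.000291, 95% interval of the log2 fold change -1.34 to -0.79), the change of greatest size among the tested members in this comparison, and it was called under all 19 alternatives with adjusted p of at most 0.00221 (edgeR, limma or DESeq2).

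The other 4 genes of the p53 target class were not called against wild-type isotype libraries. Trp53inp1, a stress-induced partner of p53 and of autophagy proteins, averaged 802 ± 80.8 CPM with anti-CD40L and 689.9 ± 43.5 CPM on isotype antibody (SD, n = 3 each; edgeR log2 fold change 0.22, SE 0.14, adjusted p = 0.338). Phlda3, which blocks the kinase AKT at the membrane, gave a log2 fold change of 0.22, and Aen, a nuclease that promotes apoptosis, gave 0.10. Perp, a membrane effector of p53 better known from epithelia, stayed at or below 1.61 CPM in every library and its interval was wide (95% interval of the log2 fold change -1.21 to 1.91). Of the 8 genes in this class, 4 were called (50%), against 9.37% of all tested genes. Their median log2 fold change was 0.28, against -0.01 over all tested genes. The class does not hold every p53 target among the members, so its share of calls depends on how the class was drawn. Mdm2, not called, and Rrm2b, called as lower, were placed in other classes. So were Fas, Tnfrsf10b, Ddb2, Xpc, Polk and Gadd45a, none of which was called against wild-type isotype libraries.

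The GADD45 proteins are small stress sensors that bind cell cycle and MAP kinase proteins, and none of the 3 was called. Gadd45b, a target of NF-kB, was the one with a substantial level, with 68.5, 67.4 and 80.3 CPM in the anti-CD40L libraries, 62.2, 60.9 and 68.1 CPM in the KO isotype libraries and 67.3, 66.6 and 55.1 CPM in the wild-type isotype libraries. The anti-CD40L libraries were just above the wild-type isotype ones without overlap (edgeR quasi-likelihood test, log2 fold change 0.19, SE 0.11, adjusted p = 0.293). Gadd45a and Gadd45g reached at most 4.88 CPM in any library, and their log2 fold changes of -0.60 and -0.64 had intervals from -1.37 to 0.17 and from -1.56 to 0.28.

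Of the 6 DNA repair genes, Rrm2b alone was called. Rrm2b (NM_199476, chr15:37923952-37961119) had 14.7, 13.7 and 11.7 CPM in the anti-CD40L libraries, 19.7, 16.5 and 16.4 CPM in the KO isotype libraries and 20, 19.3 and 20.2 CPM in the wild-type isotype libraries. The anti-CD40L libraries were the lowest, and the KO isotype libraries reached from below the wild-type range into it. The level fell 1.47-fold (edgeR quasi-likelihood test, log2 fold change -0.56, SE 0.15, adjusted p = 0.04). That call was lost without any 1 of 7 libraries, the KO isotype replicates 1 and 3 being the exceptions (edgeR adjusted p up to 0.12), and also with no filter or with only the 2 groups compared. For Rrm2b, 8.04% of its exon bases overlap Gm49085 on the opposite strand.

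Parp1, the poly(ADP-ribose) polymerase that marks DNA breaks and is cleaved by caspases, had 236, 224 and 219 CPM in the anti-CD40L libraries, 196, 206 and 192 CPM in the KO isotype libraries and 195, 195 and 187 CPM in the wild-type isotype libraries. The anti-CD40L libraries were the highest without overlap, and the adjusted p of the difference was the lowest among uncalled members (edgeR quasi-likelihood test, log2 fold change 0.23, SE 0.07, adjusted p = 0.0562). It passed under 5 of the 19 alternatives, among them DESeq2 (adjusted p = 0.018) and the edgeR fit without anti-CD40L replicate 3 (adjusted p = 0.0475). Polk, a DNA polymerase that copies past damaged bases, likewise lay above both isotype groups without overlap, at 36.9, 37 and 42.8 CPM with anti-CD40L and 29.9, 32.8 and 27.6 CPM in wild-type isotype libraries (edgeR log2 fold change 0.36, SE 0.12, adjusted p = 0.068), and was called by DESeq2 (adjusted p = 0.0402) and by limma-voom with quality weights (adjusted p = 0.0481). Those tools called 13.7% and 13.5% of the genes they tested.

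Ddb2, which recognises ultraviolet damage and passes it to the repair factor XPC, had 18.4, 23 and 28.7 CPM in the anti-CD40L libraries, 30.9, 30.8 and 29.1 CPM in the KO isotype libraries and 29.5, 27.9 and 29.7 CPM in the wild-type isotype libraries. Anti-CD40L replicates 1 and 2 lay below every isotype library, and replicate 3 fell within the wild-type isotype range. The difference was not called (edgeR quasi-likelihood test, log2 fold change -0.33, SE 0.15, adjusted p = 0.18) and was called without anti-CD40L replicate 3 (edgeR adjusted p = 0.0388). Because 23.8% of its exon bases overlap Acp2 on the opposite strand and the sources used here do not state whether the counting used strand, its counts are uncertain, as are those of other members with such overlaps given here. Xpc and Ercc5, an endonuclease of the same repair route, gave log2 fold changes of -0.04 and 0.0.

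None of the 5 members that are death receptors or their adaptors was called. Among the wider list of pathway genes described last, the TNF receptor genes Tnfrsf1a and Tnfrsf1b fell with anti-CD40L against wild-type isotype libraries (edgeR quasi-likelihood test, log2 fold change -0.55, SE 0.14, adjusted p = 0.025 for Tnfrsf1a and log2 fold change -0.43, SE 0.12, adjusted p = 0.0407 for Tnfrsf1b), and they were named after their values were seen. The Tnfrsf1a call was lost without anti-CD40L replicate 1 or any 1 wild-type isotype library (edgeR adjusted p up to 0.104), and that of Tnfrsf1b in those cases and also without anti-CD40L replicate 3 or KO isotype replicate 2 (edgeR adjusted p up to 0.175). Fas had 43.8, 41.2 and 54.3 CPM in the anti-CD40L libraries, 39.9, 38.7 and 36.8 CPM in the KO isotype libraries and 45.6, 33.6 and 41.6 CPM in the wild-type isotype libraries, and its anti-CD40L and wild-type isotype libraries overlapped (edgeR quasi-likelihood test, log2 fold change 0.19, SE 0.14, adjusted p = 0.39). Cflar, whose product c-FLIP competes with caspase-8 at the receptor, averaged 200.3 ± 11.8 CPM with anti-CD40L and 203 ± 15.6 CPM in wild-type isotype libraries (SD, n = 3 each; 95% interval of the log2 fold change -0.21 to 0.17). The TRAIL receptor gene Tnfrsf10b and the adaptor genes Fadd and Tradd gave log2 fold changes of 0.17, 0.15 and -0.01.

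In the necroptosis arm, Ripk3 had 33.3, 48.5 and 45.9 CPM in the anti-CD40L libraries, 53.4, 50.3 and 42.2 CPM in the KO isotype libraries and 48.4, 67 and 59.6 CPM in the wild-type isotype libraries. The lowest library was an anti-CD40L one, and the second library of that group slightly exceeded the lowest wild-type isotype one, and the difference was not called (edgeR quasi-likelihood test, log2 fold change -0.46, SE 0.16, adjusted p = 0.0866). It passed when genes of low count were kept in the fit (edgeR adjusted p = 0.00795), a fit that called 8.64% of its genes. Ripk1, the kinase upstream of it, gave a log2 fold change of -0.19 with overlapping libraries, and shares 6.12% of its exon bases with genes on its own strand.

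Among the caspases, Casp9 (NM_015733, chr4:141793612-141815978) had 9.68, 9.03 and 8.22 CPM in the anti-CD40L libraries, 11.8, 11.2 and 11.2 CPM in the KO isotype libraries and 12.9, 13.2 and 15.3 CPM in the wild-type isotype libraries. The groups formed 3 steps without overlap, lowest with anti-CD40L and highest in wild-type isotype libraries. The level fell 1.52-fold (edgeR quasi-likelihood test, log2 fold change -0.61, SE 0.17, adjusted p = 0.0426), to a mean of 8.97 ± 0.733 CPM in the anti-CD40L group. The call was lost without any 1 of the 9 libraries (edgeR adjusted p from 0.0505 to 0.156) and also with no filter, with only the 2 groups compared and by limma-voom. Casp8, the initiator of the death receptor route, had 72.1, 85.6 and 81.8 CPM with anti-CD40L and 92.7, 88.2 and 94.2 CPM in wild-type isotype libraries, lower without overlap but not called (edgeR quasi-likelihood test, log2 fold change -0.20, SE 0.10, adjusted p = 0.197). Casp2, an initiator linked to p53 and DNA damage, and the executioner Casp6 gave log2 fold changes of 0.06 and 0.18 and overlapped.

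None of the 7 genes of the apoptosome and mitochondrial release was called. Cycs (cytochrome c) had 157, 148 and 172 CPM with anti-CD40L and 139.6, 139.9 and 136 CPM in wild-type isotype libraries, higher without overlap (edgeR quasi-likelihood test, log2 fold change 0.20, SE 0.08, adjusted p = 0.137). Its processed pseudogenes may share reads with it. Diablo, which releases caspases from inhibition, was lower without overlap at a log2 fold change of -0.24, and 23.5% of its exon bases overlap genes on the opposite strand and 19.3% genes on its own strand. The caspase inhibitor Xiap and the apoptosome scaffold Apaf1 gave 0.31 and 0.26 on the same scale, with overlapping libraries. Htra2, Aifm1 and Endog, encoding a mitochondrial protease, a flavoprotein and a nuclease, lay between -0.03 and 0.22, with 43.7% of the Htra2 exon bases and 35.7% of those of Endog on overlapping genes of the opposite strand. The nuclease that cuts chromatin in apoptosis and its inhibitor, Dffb and Dffa, gave 0.17 and 0.08.

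**Figure D2:**
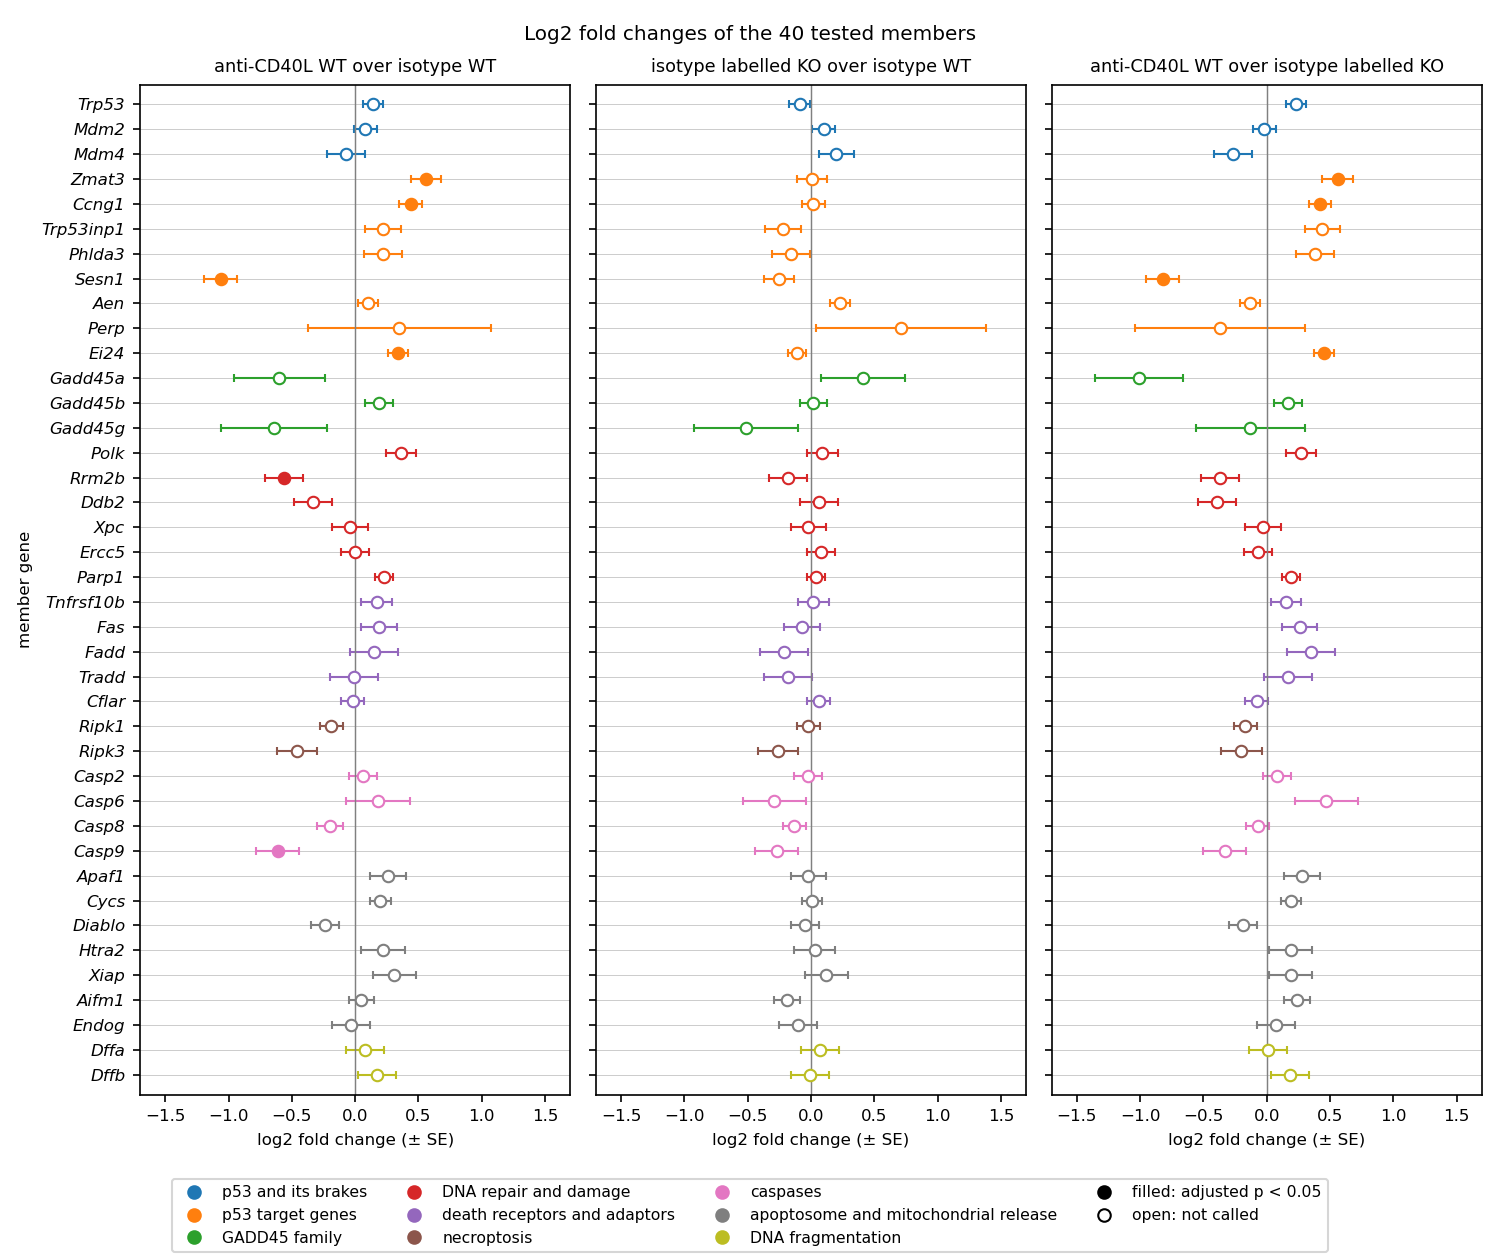
Log2 fold change ± SE (horizontal axes) of the 40 tested members in each of the 3 comparisons, coloured by role, with filled points for members called at an adjusted p under 0.05 and open points for the others. Anti-CD40L against wild-type isotype libraries has 6 filled points, KO against wild-type isotype libraries has none and anti-CD40L against KO isotype libraries has 4.

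Cells titled KO and wild-type cells, both on isotype antibody, were compared next, which addresses loss of CD40L as far as the titles give it and shares the wild-type isotype libraries with the comparison above. No member was called (0 of 40), against 0.0% of all tested genes, and their log2 fold changes ranged from -0.51 to 0.71 around a median of -0.02 (0.0 over all tested genes). Unadjusted p was under 0.05 for 1 member and for 649 of the 11256 tested genes (5.77%) by edgeR, while over all genes 42 calls came from DESeq2 (0.4%), 38 from limma-voom with quality weights (0.338%), 0 without these weights and 102 from edgeR with no filter (0.519%), with no member among them. The 3 libraries of each group did not overlap in 4 members (10%), against 15.2% of all tested genes. These 4 were named after their values were seen: Aen was higher (7.61% of all tested genes), and Ei24, Casp9 and Aifm1 were lower (7.62%).

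Aen, the member with an unadjusted p under 0.05, had 138, 140.2 and 123 CPM in the anti-CD40L libraries, 148, 152 and 142 CPM in the KO isotype libraries and 122, 126 and 128 CPM in the wild-type isotype libraries. Its KO isotype libraries were the highest of all 9, with means of 148 ± 5.45 CPM and 125 ± 3.05 CPM in KO and wild-type isotype libraries (SD, n = 3 each; edgeR quasi-likelihood test, log2 fold change 0.23, SE 0.08, adjusted p = 0.703). Ei24 averaged 94.7 ± 4.9 CPM against 102 ± 1.02 CPM and Casp9 11.4 ± 0.355 CPM against 13.8 ± 1.28 CPM in those groups (edgeR log2 fold change -0.11, SE 0.07, adjusted p = 0.927 for Ei24 and log2 fold change -0.27, SE 0.17, adjusted p = 0.902 for Casp9). For Sesn1, Zmat3 and Ccng1, whose anti-CD40L calls held under all 19 alternatives against wild-type isotype libraries, the intervals of the KO difference were -0.51 to 0.02 for Sesn1, -0.24 to 0.26 for Zmat3 and -0.18 to 0.22 for Ccng1. Those intervals do not show equal levels: they leave room for a modest change in either direction in Zmat3 and Ccng1. Aifm1 averaged 56 ± 2.58 CPM in KO and 63.8 ± 5.67 CPM in wild-type isotype libraries (SD, n = 3 each; edgeR log2 fold change -0.19, SE 0.10, adjusted p = 0.888). The KO libraries also varied among themselves in Trp53inp1, at 494, 523 and 755 CPM, and in Mdm4, at 167, 224 and 256 CPM.

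Anti-CD40L wild-type libraries were then set against the KO isotype libraries, which contrasts ligation of CD40L with its intended absence. This comparison shares its libraries with the others, so its values are given beside theirs and not as separate support. Of 40 tested members, 4 were called (10%), against 6.83% of all tested genes (769 of 11256). Zmat3, Ccng1 and Ei24 were higher and Sesn1 was lower, against 1.79% and 5.04% of all tested genes in those directions. The median log2 fold change was 0.12, against -0.01 over all tested genes. Libraries did not overlap in 17 members (42.5%), against 26.2% of all tested genes, and of these 10 were higher and 7 lower, against 10.3% and 15.9%.

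Zmat3 was 1.47-fold higher with anti-CD40L (edgeR quasi-likelihood test, log2 fold change 0.56, SE 0.12, adjusted p = 0.0106) and Ccng1 1.34-fold higher (edgeR log2 fold change 0.42, SE 0.09, adjusted p = 0.014). Both calls were lost without KO isotype replicate 2 (edgeR adjusted p = 0.0617 for Zmat3 and 0.081 for Ccng1), and that of Ccng1 also without anti-CD40L replicate 1 (edgeR adjusted p = 0.0534). Ei24 was 1.36-fold higher (log2 fold change 0.45, SE 0.08, adjusted p = 0.00286 by edgeR) and Sesn1 fell 1.76-fold (log2 fold change -0.82, SE 0.13, adjusted p = 0.00186 by edgeR), and both were called under all 19 alternatives. Rrm2b and Casp9 had log2 fold changes of -0.37 and -0.33 here, with edgeR adjusted p = 0.173 for Rrm2b and adjusted p = 0.271 for Casp9. Their KO isotype levels lay between those of the other groups on average.

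Several members were not called in this comparison by the chosen test but lay near the threshold. Trp53inp1 had 829.7, 866 and 711 CPM with anti-CD40L and 494, 523 and 755 CPM in KO isotype libraries, where the third KO library overlapped the anti-CD40L range (edgeR quasi-likelihood test, log2 fold change 0.44, SE 0.14, adjusted p = 0.0756). It was called under 5 alternatives, including DESeq2 (adjusted p = 0.0236) and edgeR without KO isotype replicate 3 (adjusted p = 0.00129). Gadd45a had 1.79, 2.23 and 2.29 CPM with anti-CD40L and 4.88, 4.25 and 3.56 CPM in KO isotype libraries, without overlap (edgeR log2 fold change -1.01, SE 0.35, adjusted p = 0.106), and 19.1% of its exon bases overlap E230016M11Rik on the opposite strand. Ddb2 (edgeR log2 fold change -0.39, SE 0.15, adjusted p = 0.144) was called without anti-CD40L replicate 3 (edgeR adjusted p = 0.0263), with the mean over transcript entries (edgeR adjusted p = 0.0401) and by limma-voom with quality weights (adjusted p = 0.00899). DESeq2 called 9.82% of its tested genes in this comparison and limma-voom with quality weights 13.0%. The weighted fit also called Apaf1 (adjusted p = 0.0128; edgeR log2 fold change 0.28, SE 0.14, adjusted p = 0.259). Trp53 was higher than in KO isotype libraries without overlap and was not called (edgeR quasi-likelihood test, log2 fold change 0.23, SE 0.08, adjusted p = 0.108).

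**Figure D3:**
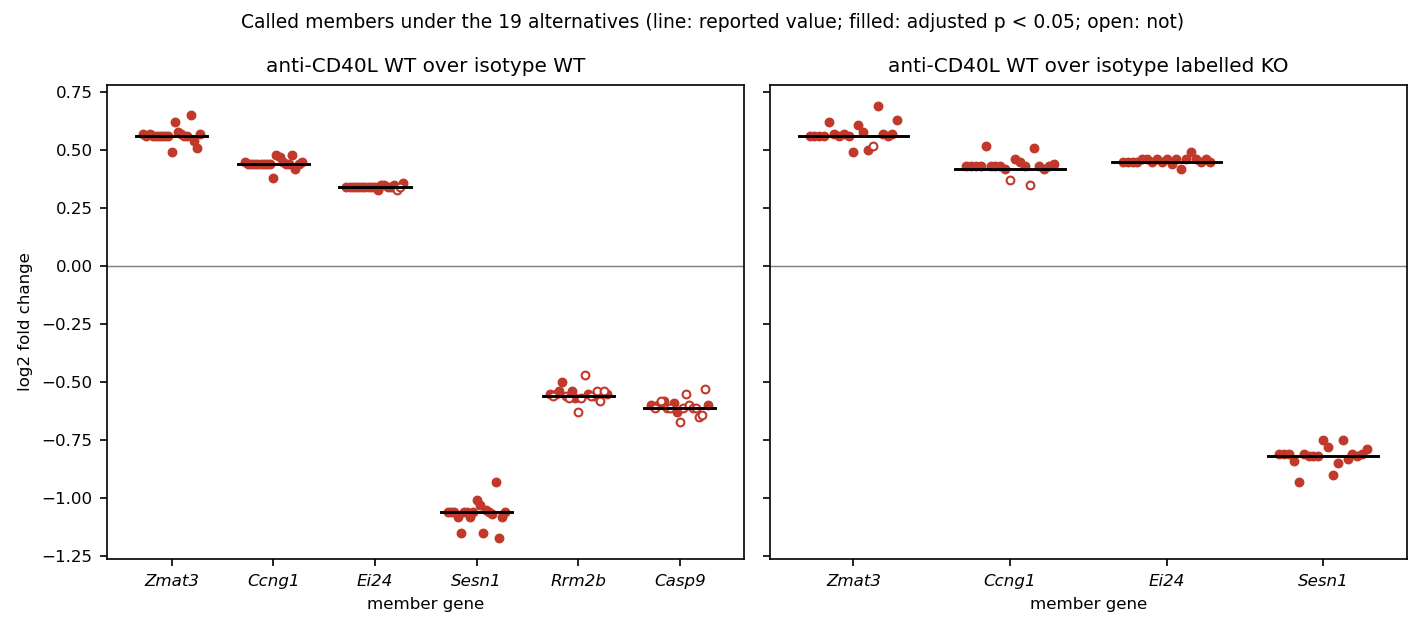
Log2 fold change (vertical axis) of the called members under the 19 alternatives, in the comparisons of anti-CD40L with wild-type isotype libraries (left) and KO isotype libraries (right). Each point is 1 alternative, filled where the adjusted p is under 0.05 and open where it is not, and lines are the reported values. Sesn1 keeps a negative change under every setting shown and Zmat3, Ccng1 and Ei24 a positive one.

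Length-normalised levels place these genes on one scale, in mean CPM per kb of transcript for the 39 members with an annotated length. Aen and Ripk1 had none. Trp53inp1 stood at 148, 109 and 128 CPM per kb in anti-CD40L, KO isotype and wild-type isotype libraries, Trp53 at 125, 107 and 113 CPM per kb and Ccng1 at 129.7, 96.8 and 95.6 CPM per kb. These were the most abundant members in every group, and in anti-CD40L libraries their levels lay within 125 to 148 CPM per kb. Cflar followed at 63.3, 66.9 and 64.2 CPM per kb, above Casp8, the caspase whose activation its product controls, at 30.9, 32.4 and 35.5 CPM per kb. Of the caspases, Casp8 was the most abundant per kb, with Casp2 at 23.2, 22 and 22.3 CPM per kb, Casp6 at 9.89, 6.97 and 8.49 CPM per kb and Casp9 at 2.3, 2.93 and 3.54 CPM per kb. Averaged over the 9 libraries, Mlkl, Perp, Gadd45g and Gadd45a were the scarcest, with Mlkl at 0.329, 0.201 and 0.183 CPM per kb.

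**Figure D4:**
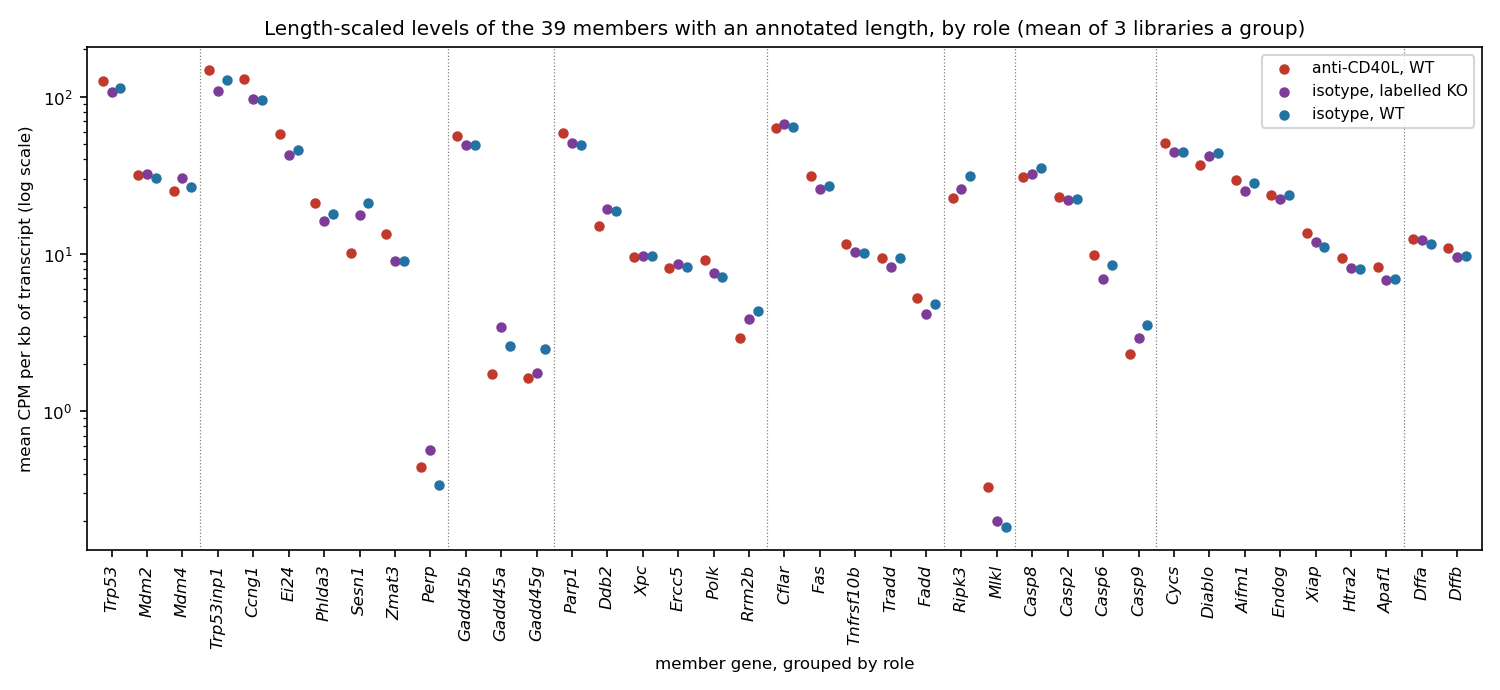
Mean CPM per kb of transcript over 3 libraries a group (vertical axis, log scale) of the 39 members with an annotated length in anti-CD40L wild-type, isotype KO and isotype wild-type libraries, grouped by role (dotted lines) along the horizontal axis. Trp53inp1, Trp53 and Ccng1 lie above 95 CPM per kb in every group and Mlkl lies below 0.33.

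For most members the transcript entries of a gene carried nearly the same counts, so isoforms could seldom be separated. Over genes with more than 1 entry and at least 1000 counts in the first, the second entry held a median of 0.991 of the first. In 5 members an entry with at least 1000 counts lay below 0.8 of the most abundant one, giving 8 pairs, which are described without a test. Cflar was the clearest: the entry NM_009805 held 19.2%, 21.6% and 19.4% of the counts of NM_207653 in anti-CD40L libraries, 15.3%, 16% and 16.5% in KO isotype libraries and 17.2%, 15.5% and 16.8% in wild-type isotype libraries. Every anti-CD40L library was above every isotype library, while the level of the gene's main entry overlapped. In Dffa, NM_010044 held 38.1%, 37.1% and 30.3% of the main entry with anti-CD40L, 34.9%, 34.7% and 34.9% in KO isotype libraries and 38.9%, 40% and 38.6% in wild-type isotype libraries, lowest in anti-CD40L replicate 3 and highest in the wild-type isotype group. Replicate 3 also stood alone in Ddb2, where NM_001362705 held 30.0% of the main entry, against 64.0% to 67.1% in the other 8 libraries.

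**Figure D5:**
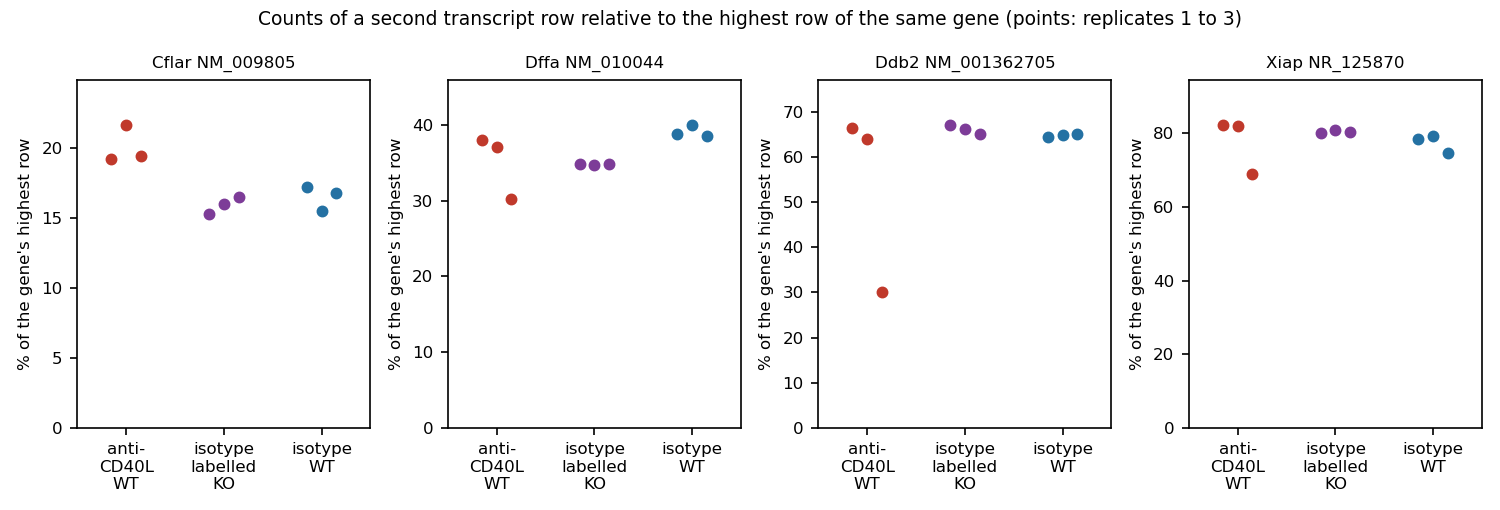
Counts of a second transcript entry as a percentage of the gene's most abundant entry (vertical axes, from 0) for 4 genes, with points for replicates 1 to 3 of the anti-CD40L wild-type, isotype KO and isotype wild-type groups. The Cflar entry is higher in all 3 anti-CD40L libraries than in the 6 isotype libraries, and anti-CD40L replicate 3 is low in Ddb2.

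Some of the spread among replicates followed transcript length. Over 10222 tested genes with a length, a library's deviation from the mean of the other replicates of its group correlated with length at a Spearman rho of 0.151, 0.038 and -0.137 in anti-CD40L replicates 1 to 3, -0.276, 0.014 and 0.257 in KO isotype replicates 1 to 3, and 0.128, -0.272 and 0.191 in wild-type isotype replicates 1 to 3, where genes share their libraries and are not independent. Among the members with long transcripts, Xiap (6670 bases) had 108, 91.3 and 75.7 CPM in the anti-CD40L libraries, 62, 76.3 and 102 CPM in the KO isotype libraries and 82.3, 68.7 and 71.9 CPM in the wild-type isotype libraries. Its lowest KO isotype value lay in replicate 1 and its highest in replicate 3, as did those of Mdm4 (7105 bases). With a length trend removed per library, a setting chosen after seeing the data, 7 members were called against wild-type isotype libraries and 5 against KO isotype libraries, the added ones being Parp1 (edgeR adjusted p = 0.0372) and Trp53inp1 (edgeR adjusted p = 0.0202). The share of all tested genes called under that setting is not given here, so these counts are not read as a result about the members.

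A further 50 genes of the apoptosis and p53 pathways, the BCL-2 family included, were read from the same fit, and 49 were tested, Dram1 being the exception. With anti-CD40L, 8 of the 49 (16.3%) were called against wild-type isotype libraries, against 9.37% of all tested genes, 2 higher and 6 lower, at a median log2 fold change of -0.07. Against KO isotype libraries 4 (8.16%) were called, against 6.83% of all tested genes, 1 higher and 3 lower, and between KO and wild-type isotype libraries none was called (edgeR; 2 had an unadjusted p under 0.05). The p53 targets most used as readouts, Cdkn1a, Bax and Bbc3, were not called with anti-CD40L against wild-type isotype libraries (edgeR log2 fold changes 0.10, 0.26 and -0.29). Bax was nonetheless higher without overlap against both isotype groups (edgeR adjusted p = 0.121 against wild type and 0.212 against KO), as were 15.4% and 10.3% of all tested genes. Cdkn1a and Bbc3 overlapped in both comparisons.

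The called genes of smallest adjusted p show what moved. Bcl2l1, the gene of the anti-death protein BCL-xL, had 156, 139.5 and 203 CPM in the anti-CD40L libraries, 118, 132 and 128 CPM in the KO isotype libraries and 95.4, 83.8 and 79.5 CPM in the wild-type isotype libraries. The 3 groups did not overlap, highest with anti-CD40L and lowest in wild-type isotype libraries (edgeR quasi-likelihood test of anti-CD40L against wild-type isotype libraries, log2 fold change 0.94, SE 0.13, adjusted p = 0.000537, and of KO against wild-type isotype libraries, adjusted p = 0.366).

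Btg2 had 102, 141 and 104 CPM in the anti-CD40L libraries, 257, 234 and 210.3 CPM in the KO isotype libraries and 215, 260.0 and 222 CPM in the wild-type isotype libraries. This antiproliferative p53 target fell against both isotype groups (edgeR quasi-likelihood test, log2 fold change -1.0, SE 0.13, adjusted p = 0.000388 against wild type and log2 fold change -1.01, SE 0.13, adjusted p = 0.000442 against KO). Ccng2 had 19.4, 20 and 7.07 CPM in the anti-CD40L libraries, 38.1, 34.3 and 38.6 CPM in the KO isotype libraries and 50.9, 40.9 and 41.1 CPM in the wild-type isotype libraries. Cyclin G2, the relative of Ccng1 linked to growth arrest, thus moved in the direction opposite to Ccng1 against wild-type isotype libraries (edgeR quasi-likelihood test, log2 fold change -1.46, SE 0.25, adjusted p = 0.00296), with its lowest value in anti-CD40L replicate 3. Zbp1 had 2.87, 3.65 and 1.72 CPM in the anti-CD40L libraries, 33.5, 13.7 and 8.97 CPM in the KO isotype libraries and 19.4, 13 and 22.7 CPM in the wild-type isotype libraries. This sensor of unusual nucleic acid structures, which can activate RIPK3, fell against KO isotype libraries (edgeR quasi-likelihood test, log2 fold change -2.67, SE 0.46, adjusted p = 0.00343), a call lost by limma-voom (adjusted p = 0.0917), by limma-voom with quality weights (adjusted p = 0.082) and without anti-CD40L replicate 3 (edgeR adjusted p = 0.0529). Zbp1 also fell against wild-type isotype libraries (edgeR quasi-likelihood test, log2 fold change -2.67, SE 0.47, adjusted p = 0.00334), a call lost by limma-voom with and without quality weights (adjusted p up to 0.0545).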

How the data were processed

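RNA-seq libraries came from a KAPA mRNA HyperPrep protocol, per the labels. The deposited table gives the authors' estimated counts per RefSeq transcript, in steps of 0.5. CASAVA 1.8.2, HISAT2 2.1.0 and the build mm10 are named, with no roles, per the submitters' processing notes; how reads were counted, by strand or otherwise, and where shared reads went is information not given in sources used here. Of 42361 transcript rows, 42203 were named from the RefSeq GRCm38.p6 table, 65 from GENCODE vM21 and 93 not at all.

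Each gene was read from its row of highest total, with fractions rounded up, since the counts were not whole as the design had assumed. edgeR 4.0.16 (R 4.3.3) fitted all 9 libraries in 3 groups (filterByExpr, TMM scaling, robust quasi-likelihood F tests), and p-values were Benjamini-Hochberg adjusted over 11256 genes with a threshold of 0.05 for a call. Every adjusted p is of this kind unless DESeq2 1.42.0 or limma 3.58.1 is named. The script was tested on simulated data. Alternatives were RLE scaling, no filter, DESeq2, limma-voom with and without quality weights, only the groups compared, a replicate block, the mean over transcript rows, rounding down, leaving out each library and, added after seeing the data, removal of a length trend. Members and lists were chosen with earlier results of these data known. Values in every library are given for called members and Trp53, and for others near the threshold or with special features named after seeing their values; from the wider pathway list, at most 2 called genes per direction and comparison were named, plus 3 common p53 readouts. Tnfrsf1a and Tnfrsf1b were added after their values were seen. A gene that this rule names is not reported here. Exon overlaps are from GENCODE vM21, and promoter windows from RefSeq.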

Additional observations from a re-analysis of the deposited data

How the results depend on the processing

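Called members numbered 6 with anti-CD40L against wild-type isotype libraries, and 4 to 9 under the alternatives that kept all 9 libraries or the 2 groups compared, with 3 to 6 when 1 library was left out. The count was 3 without wild-type isotype replicate 2 or replicate 3. Calls over all tested genes also shifted between settings, as given below, so these ranges are not a result about the members alone. Against KO isotype libraries it was 4, with 7 by limma-voom with quality weights and 2 to 5 when 1 library was left out, the lowest without KO isotype replicate 2. Between KO and wild-type isotype libraries it was 0 under all 19 alternatives (0 to 0 when 1 library was left out). Of 627 gene and count values, 561 were labelled the same: a gene kept its side of the threshold, or a count of members stayed close to the reported one. Of the others, 43 lost the call, 19 gained it, 4 counts moved further and 0 changed direction.

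With the replicate block, 4 members were called with anti-CD40L against wild-type isotype libraries, 4 against KO isotype libraries and 0 between KO and wild-type isotype libraries, and the calls of Rrm2b and Casp9 were lost under it. The share of all tested genes called with the block is not given here. The same-numbered libraries deviated from their group means with correlations of -0.149 to 0.18. With 3 libraries a group and no differently numbered pairs set beside them, these values cannot show whether same-numbered libraries share an origin.

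Over all tested genes, 1055 calls against wild-type isotype libraries became 1698 with no filter, 1592 by DESeq2 and 486 to 1342 when 1 library was left out. The 769 calls against KO isotype libraries became 1305, 1181 and 346 to 1022, with 1458 by limma-voom with quality weights and 481 with only the 2 groups. The 0 calls between isotype groups became 102 with no filter, 42 by DESeq2, 38 by limma-voom with quality weights, 3 with only the 2 groups and 0 to 2 when 1 library was left out. The cause of these shifts was not tested.

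Depth limits Mlkl, Perp, Gadd45a and Gadd45g, whose counts are too few for a modest change to be detectable. When an arm was left with 2 libraries, the spread was shared over all groups.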
